A study of Homo sapiens with 12 samples.

Results

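The genes described here are 10 Wnt target and intestinal stem cell genes, LGR5, ASCL2, AXIN2, SOX9, EPHB2, EPHB3, PROM1, NKD1, TCF7 and LEF1, measured in Caco-2 cells under low or high zinc. Their probes were those whose single symbol in the platform's probe table is one of these genes, and probes entered the tests if 1 group or more had a detection p-value below 0.05 on each of its 3 arrays. Of the 10 genes, 8 had such a probe, 9 probes in all. The tests took in 8 probes of 7 genes, among 17413 entering probes of the 47323 on the array. LEF1 had 2 entering probes, and ASCL2, AXIN2, SOX9, PROM1, NKD1 and LGR5 had 1 each. The single EPHB3 probe was above background on 1 of 12 arrays and did not enter, and EPHB2 and TCF7 are not analysed here.

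Caco-2 is an established human line from a colonic adenocarcinoma, and its total RNA was hybridised to 12 single-colour Illumina bead arrays. The cells received either a non-targeting control siRNA or an ON-TARGETplus siRNA against MTF1, the transcription factor that senses zinc and binds metal response elements. Each siRNA was combined with 3 µM or 150 µM zinc, which gave 4 groups of 3 arrays: control siRNA at low zinc, control siRNA at high zinc, MTF1 siRNA at low zinc and MTF1 siRNA at high zinc. All groups were transfected with a lipid reagent and grown in medium with fetal calf serum. The time in zinc and in siRNA is not stated, and no label says that replicates were separate cultures, so p-values measure the spread between these arrays.

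In the canonical Wnt pathway, a secreted Wnt protein binds a Frizzled receptor and an LRP co-receptor, which keeps beta-catenin from being degraded. Beta-catenin then enters the nucleus and acts with DNA-binding proteins of the TCF/LEF family to turn on target genes, several of which, such as AXIN2 and NKD1, feed back on the pathway. At the base of the intestinal crypt the pathway maintains stem cells, which are marked by LGR5 and ASCL2. In many colonic adenocarcinomas, and in Caco-2 cells, the pathway is active through loss of APC function.

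RefSeq promoter windows (build GRCh38.p14, from 250 bases before to 50 after a transcript start) were at hand for 5 of the 10 genes, EPHB2, EPHB3, LEF1, PROM1 and TCF7, with 10 windows in all. Each was searched on both strands for the TCF/LEF word ATCAAAG, which 2.62% of 35116 windows hold, and for the metal response element core TGCACNC or TGCGCNC, which 29.6% hold. Windows of 1 gene can overlap, and a match describes the letters alone. Sequences are shown for LEF1, whose signal rose with zinc, and for PROM1, the gene with the TCF/LEF word. The pair was chosen after their values were seen. The LEF1 window held neither motif. It belongs to a start 2631 bases inside the gene's RefSeq extent, and the 250 bases before that start lie at chr4:108166302-108166551 on the minus strand, written 5′ to 3′.
LEF1: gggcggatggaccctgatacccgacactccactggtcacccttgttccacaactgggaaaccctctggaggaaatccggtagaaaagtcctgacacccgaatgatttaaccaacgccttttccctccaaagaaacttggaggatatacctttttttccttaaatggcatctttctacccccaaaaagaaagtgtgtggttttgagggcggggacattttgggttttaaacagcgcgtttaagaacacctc
In PROM1, the stretch at chr4:16076261-16076327, minus strand, holds the TCF/LEF word, in capitals, as its reverse complement, ahead of a start 7905 bases inside the gene's extent.
PROM1: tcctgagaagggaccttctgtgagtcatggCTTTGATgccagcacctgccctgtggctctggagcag
The metal response element core matched once in each of 2 other PROM1 windows and in none of the EPHB2, EPHB3, LEF1 or TCF7 windows.

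Each array detected between 18191 and 19469 probes, no array duplicated another, and arrays of 1 group correlated at 0.988 to 0.9915 over the entering probes. MTF1, the targeted gene, had log2 levels of 6.49 to 6.77 and 6.55 to 6.80 with control siRNA at low and high zinc, and of 5.69 to 6.28 and 5.31 to 6.25 with MTF1 siRNA. The siRNA groups did not overlap at either zinc level. The difference passed the test at high zinc (-0.98 ± 0.22 SE, adjusted p = 0.0442, a call lost in 13 of 21 alternative analyses; -0.40 without background correction) and did not at low zinc (-0.71 ± 0.22, adjusted p = 0.207). Of 14 epithelial and enterocyte markers, 8 were above background on all arrays, namely EPCAM, CDH1, CDH17, VIL1, DPP4 and the keratins KRT8, KRT18 and KRT19. FABP2 was above background on none, the further enterocyte markers ALPI, ANPEP and FABP1 on at most 1, KRT20 on at most 5 and SI on at most 10. Of 12 stromal, endothelial and immune markers, 5 were (CD68, COL1A1, COL1A2, COL3A1 and LUM), while CD3E and VWF were above background on none and PTPRC on at most 1. The most often detected CD79A probe was above background on 7 of 12 arrays, that of DCN on 2 and those of PECAM1 and PDGFRB on 1.

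LEF1 was the member whose signal rose with zinc, under both siRNAs and on both of its probes. LEF1 encodes a DNA-binding partner of beta-catenin and is itself a Wnt target. Values are log2 intensities after normalization, and levels of different probes are not set against each other. On the first probe (ILMN_1679185) the control siRNA arrays read 8.09, 8.08 and 8.21 at low zinc and 8.60, 8.67 and 8.51 at high zinc. With MTF1 siRNA the same probe read 8.26, 8.03 and 8.02 at low zinc and 8.84, 8.69 and 8.70 at high zinc. Every high-zinc array lay above every low-zinc array, whichever siRNA the cells had received.

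The change of the first LEF1 probe was 0.47 ± 0.10 SE with control siRNA, a 1.38-fold rise with a 95% interval of 1.19 to 1.61 (limma, adjusted p = 0.00882, n = 3 and 3). With MTF1 siRNA it was 0.64 ± 0.10, a 1.56-fold rise with an interval of 1.34 to 1.81 (adjusted p = 0.00121). Both changes were larger than the SD between arrays of a group, which ran from 0.07 to 0.14 on this probe.

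The second LEF1 probe (ILMN_2213136) read 8.12, 8.09 and 7.98 with control siRNA at low zinc and 8.65, 8.71 and 8.83 at high zinc. With MTF1 siRNA it read 8.19, 8.16 and 8.11 at low zinc and 8.75, 8.62 and 8.80 at high zinc. Again no low-zinc array reached a high-zinc array. The rise was 1.59-fold with control siRNA (0.67 ± 0.09, interval 1.38 to 1.82, adjusted p = 0.000672) and 1.49-fold with MTF1 siRNA (0.57 ± 0.09, interval 1.29 to 1.71, adjusted p = 0.0014). Both probes read the same RNA samples, so they are repeat readings of LEF1 and not further replicates. The zinc comparisons under the 2 siRNAs share no array. They do share the normalization and the estimate of spread over all 12 arrays, so their p-values are not fully independent.

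The 2 LEF1 probes were the members called in either zinc comparison, 2 of 8 member probes each time. Of all entering probes, 17.2% were called for zinc with control siRNA (8.43% higher) and 15% for zinc with MTF1 siRNA (7.06% higher), so a count of 2 of 8, on 1 gene, is near what the array as a whole shows. The median change of the 8 member probes was 0.19 with control siRNA and 0.04 with MTF1 siRNA, against medians of 0.00 and -0.01 over all entering probes. With 1 probe for each gene the count was 1 in each comparison. The first LEF1 probe was called in all 20 alternatives run on it and the second in all 21. The adjusted p of the first probe then reached at most 0.037 with control siRNA and 0.0103 with MTF1 siRNA, and that of the second at most 0.0101 and 0.00949.

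Cell type markers were measured on the same arrays as LEF1. Over all named genes, 8.87% were called higher and 10% lower with zinc under control siRNA. Under MTF1 siRNA 7.67% were called higher and 9.52% lower. Of 6 measured stromal and immune markers, 1 rose and 1 fell with control siRNA, and 1 rose and 0 fell with MTF1 siRNA. The gene that rose in both was COL1A2, a collagen chain (0.79 ± 0.10 and 1.00 ± 0.10), and COL1A1 fell with control siRNA (-0.64 ± 0.13, or -0.35 without background correction). The summed linear level of the 12 markers ran from 1431 to 1514 and from 1188 to 1308 at low zinc, with control and MTF1 siRNA, and from 1903 to 1970 and from 1709 to 1869 at high zinc. Without COL1A2, left out after its values were seen, the sums overlapped between the zinc levels, at 855 to 867 and 843 to 900 with control siRNA and at 736 to 768 and 744 to 826 with MTF1 siRNA.

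Of 6 measured secretory and Paneth cell markers, 0 rose and 3 fell with control siRNA, and 0 rose and 2 fell with MTF1 siRNA. Over all named genes 10% and 9.52% were called lower in these comparisons. TFF3, a goblet cell peptide, fell in both (-1.77 ± 0.20 and -1.47 ± 0.20, adjusted p = 0.000145 and 0.00041), as did LYZ, lysozyme (-0.39 ± 0.11 and -0.73 ± 0.11, adjusted p = 0.0338 and 0.00107), whose first call was lost in 10 of 21 alternatives. DEFA6, a Paneth cell defensin, was not above background at high zinc with control siRNA. On background-corrected values it was at least 1.30-fold lower there (adjusted p = 0.0285, lost in 7 of 20 alternatives). Without background correction DEFA6 changed by -0.205 and was not called. Of the control siRNA groups only the low-zinc one met the entry filter for DEFA6, which can favour a fall. The summed level of this list was lower at high zinc, 1899 to 2181 against 1283 to 1386 with control siRNA and 1764 to 2174 against 1209 to 1349 with MTF1 siRNA. A linear sum weighs bright probes most. With control siRNA the mean log2 level went from 9.48 to 7.71 for TFF3 and from 9.53 to 9.13 for LYZ. No sum was taken without these genes, so it does not show a fall of the list as a whole.

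Of 9 measured epithelial and enterocyte markers, 2 rose and 1 fell with control siRNA, and 2 rose and 4 fell with MTF1 siRNA. Over all named genes 18.9% and 17.2% were called in either direction. SI, the sucrase-isomaltase of the brush border, fell in both (-1.22 ± 0.28 and -1.71 ± 0.28, adjusted p = 0.0127 and 0.00159), by 0.57 and 0.72 without background correction, and its other probe read -1.37 and -1.66. The first SI probe was above background on only 1 of 3 MTF1 siRNA arrays at high zinc. KRT18 rose in both (0.47 ± 0.13 and 0.86 ± 0.13, adjusted p = 0.0258 and 0.000805, the first lost in 5 of 21 alternatives), and so did its keratin partner KRT8 (0.43 ± 0.09 and 0.34 ± 0.09, adjusted p = 0.00827 and 0.0261). With MTF1 siRNA, CDH1, which encodes E-cadherin, fell (-0.39 ± 0.09, adjusted p = 0.0116), a call lost without MTF1 siRNA high-zinc replicate 1. VIL1, the brush border protein villin, fell there too (-0.42 ± 0.13, adjusted p = 0.046), a call lost in 14 of 21 alternatives. DPP4, a brush border peptidase, was lower with MTF1 than with control siRNA at high zinc (-0.87 ± 0.20, adjusted p = 0.0476), also lost in 14 of 21 and -0.42 without background correction. The summed level of this list ran from 41463 to 42083 at low and from 46236 to 52187 at high zinc with control siRNA, and overlapped between zinc levels with MTF1 siRNA, at 41181 to 47142 and 42626 to 43012. The part of these 3 lists in the LEF1 result was not tested, and in RNA from whole cultures fewer cells of a type and less RNA per cell cannot be told apart.

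**Figure D1:**
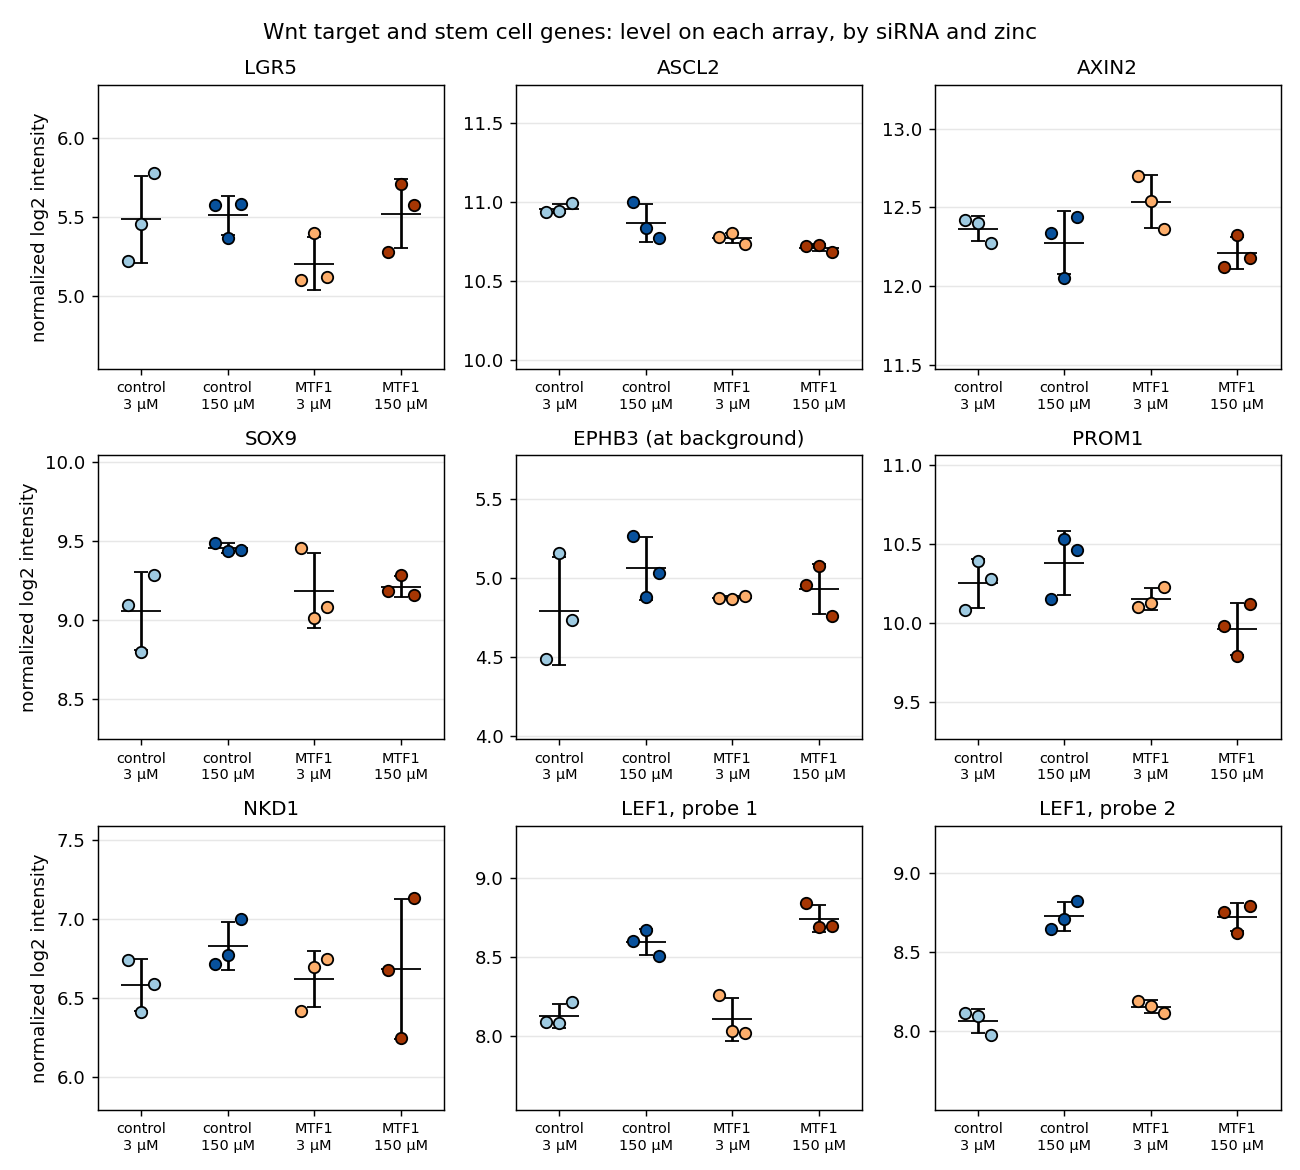
Normalized log2 intensity of the 9 probes on each array, by siRNA (control or MTF1) and zinc (3 or 150 µM). Points are arrays, horizontal lines are means of 3 arrays and bars are 1 SD; each panel has its own axis. Both LEF1 probes are higher at 150 µM on every array, and EPHB3 lies at background.

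SOX9, a transcription factor of crypt progenitor and Paneth cells, had the next largest change with zinc in control siRNA cells. It read 9.09, 8.80 and 9.28 at low zinc and 9.49, 9.44 and 9.44 at high zinc, so the groups did not overlap. The difference was 0.40 ± 0.14 (95% interval 0.09 to 0.71) and missed the threshold at adjusted p = 0.0718. It passed in 6 of 21 alternatives, among them the authors' own log2 values (0.34, adjusted p = 0.0221). It also passed without MTF1 siRNA low-zinc replicate 1 (0.40, adjusted p = 0.0459) and without control siRNA low-zinc replicate 3 (0.51, adjusted p = 0.0444). With MTF1 siRNA, SOX9 read 9.46, 9.01 and 9.08 at low zinc and 9.18, 9.29 and 9.16 at high zinc. Those groups overlapped, with a difference of 0.02 ± 0.14 (interval -0.28 to 0.33, adjusted p = 0.935).

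AXIN2, a scaffold of the complex that degrades beta-catenin and a direct Wnt target, was lower at high zinc on every array with MTF1 siRNA. It read 12.70, 12.54 and 12.37 at low zinc and 12.12, 12.32 and 12.18 at high zinc. The difference of -0.33 ± 0.12 (interval -0.60 to -0.06) missed the threshold at adjusted p = 0.102. It passed in 3 of 21 alternatives, with adjusted p between 0.0306 and 0.0315. In control siRNA cells AXIN2 read 12.42, 12.40 and 12.28 at low zinc and 12.34, 12.05 and 12.44 at high zinc, which overlap (-0.09 ± 0.12, interval -0.36 to 0.18). The feedback inhibitor NKD1, which binds Dishevelled, differed by 0.25 ± 0.19 (interval -0.17 to 0.67) with control siRNA and by 0.06 ± 0.19 (interval -0.36 to 0.49) with MTF1 siRNA. Its arrays overlapped in both, and its MTF1 siRNA high-zinc arrays spread from 6.25 to 7.13.

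The stem cell markers did not pass the test for zinc under either siRNA. LGR5, the R-spondin receptor that marks crypt base stem cells, lay close to background, with raw intensities of 134.6 to 159 on the linear scale. Its probe was above background on 2 of 3 control siRNA arrays at low zinc, on 1 of 3 MTF1 siRNA arrays at low zinc and on all 3 of each high-zinc group. The LGR5 probe thus entered the tests only through the high-zinc groups, a filter that favours a rise, and it is part of the member medians. LGR5 differed by 0.03 ± 0.16 (interval -0.32 to 0.37) with control siRNA and by 0.32 ± 0.16 (interval -0.03 to 0.66, adjusted p = 0.212) with MTF1 siRNA, and its arrays overlapped in both. ASCL2, a transcription factor of crypt base stem cells, differed by -0.09 ± 0.09 (interval -0.28 to 0.10) and -0.06 ± 0.09 (interval -0.25 to 0.13). PROM1, which encodes the membrane protein CD133, differed by 0.13 ± 0.13 (interval -0.15 to 0.41) and -0.19 ± 0.13 (interval -0.47 to 0.09). EPHB3, a receptor of the ephrin system that sorts crypt cells, had detection p-values of 0.03453 to 0.77075 and gives no level.

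Counts of member probes whose groups did not overlap were read against the same share over the array. With control siRNA, 3 of 8 member probes separated by zinc, all 3 higher at high zinc (LEF1 on both probes, and SOX9), where 34.9% of all entering probes separated. With MTF1 siRNA 4 of 8 separated, against 34.6% of all entering probes. Both LEF1 probes were higher, while AXIN2 and ASCL2 were lower.

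**Figure D2:**
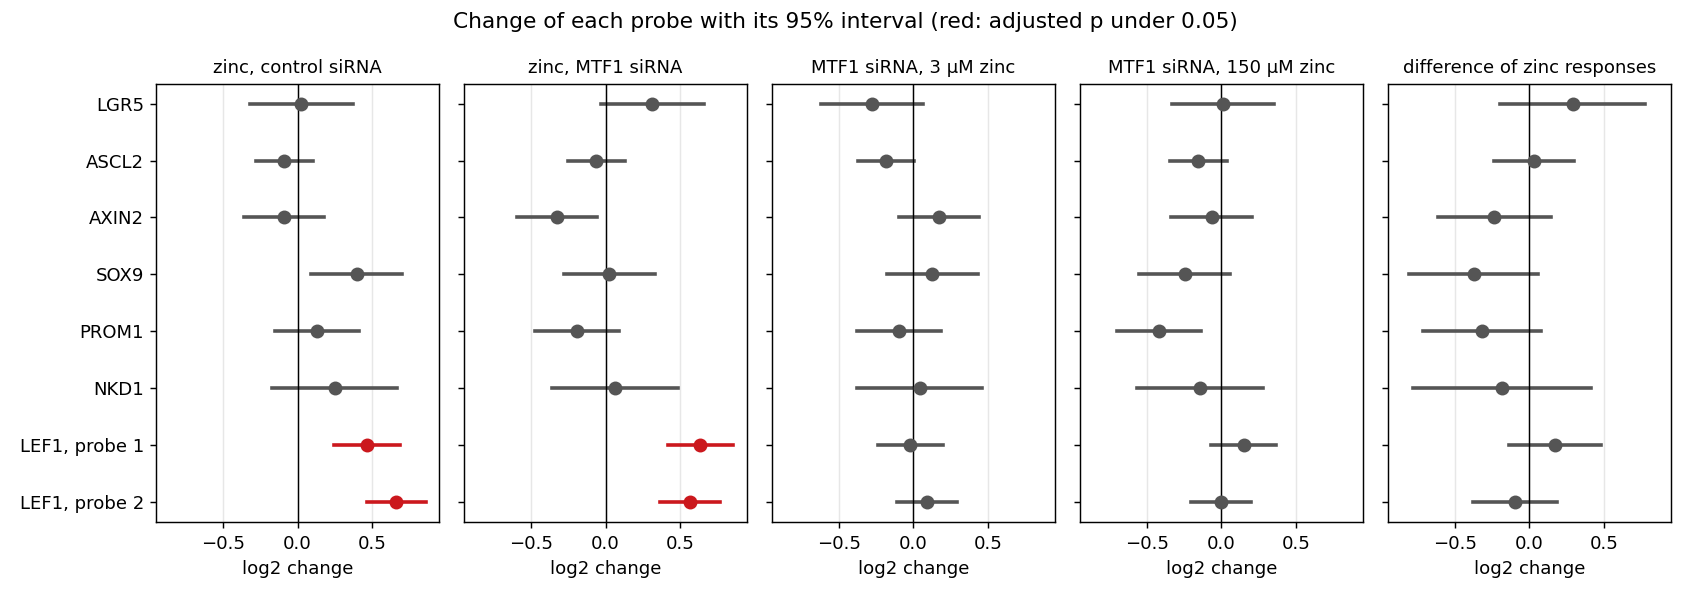
Log2 change of each of the 8 entering probes in the 5 comparisons, with 95% intervals from the limma fit over 12 arrays; red points have an adjusted p under 0.05. Both LEF1 probes are red in the 2 zinc comparisons, and no member probe is red in the siRNA comparisons or in the difference of zinc responses.

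Knockdown of MTF1 gave no called member at either zinc level. At low zinc 0 of 8 member probes were called by limma, where 0.103% of all entering probes were, and none had an unadjusted p under 0.05. At high zinc 0 of 8 were called, against 2.37% of all entering probes, and 1 had an unadjusted p under 0.05. That probe was PROM1, which read 10.15, 10.53 and 10.46 with control siRNA and 9.98, 9.79 and 10.12 with MTF1 siRNA at high zinc. The groups did not overlap, and the difference was -0.42 ± 0.13 (interval -0.70 to -0.14, adjusted p = 0.102). It passed in 3 of 21 alternatives, with adjusted p between 0.0248 and 0.025. At low zinc PROM1 read 10.09, 10.39 and 10.28 with control siRNA and 10.10, 10.13 and 10.23 with MTF1 siRNA, which overlap (-0.10 ± 0.13, interval -0.38 to 0.18).

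ASCL2 was lower with MTF1 siRNA on every array at both zinc levels, by amounts that did not pass the test. At low zinc it read 10.94, 10.94 and 10.99 with control siRNA and 10.78, 10.80 and 10.74 with MTF1 siRNA. At high zinc it read 11.00, 10.83 and 10.77 with control siRNA and 10.72, 10.73 and 10.69 with MTF1 siRNA. The differences were -0.19 ± 0.09 (interval -0.38 to 0.01, adjusted p = 0.365) and -0.16 ± 0.09 (interval -0.35 to 0.04, adjusted p = 0.332). ASCL2 was the 1 member probe of 8 that separated by siRNA at low zinc, where 20.1% of all entering probes did. At high zinc 4 of 8 separated (ASCL2, SOX9 and PROM1 lower, the first LEF1 probe higher), against 26.8% of all. SOX9 differed there by -0.25 ± 0.14 (adjusted p = 0.338) and the first LEF1 probe by 0.15 ± 0.10 (adjusted p = 0.423). The second LEF1 probe differed by -0.00 ± 0.09 (interval -0.20 to 0.20).

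The difference between the zinc responses under the 2 siRNAs was not called for any member probe, 0 of 8 by limma, with none at an unadjusted p under 0.05. Over all entering probes 0.023% were called. For LEF1 the response with MTF1 siRNA minus that with control siRNA was 0.17 ± 0.14 (interval -0.14 to 0.48, adjusted p = 0.581) on the first probe and -0.10 ± 0.13 (interval -0.38 to 0.19, adjusted p = 0.746) on the second. For SOX9 it was -0.37 ± 0.20 (interval -0.81 to 0.06, adjusted p = 0.379), for PROM1 -0.32 ± 0.18 (interval -0.72 to 0.08) and for AXIN2 -0.24 ± 0.18 (interval -0.62 to 0.15). Each interval holds 0, which does not show that the responses were alike.

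The order of the 4 groups differed from member to member. For LEF1 the steps from a low-zinc to a high-zinc group were clear of overlap on both probes, whereas the low-zinc groups overlapped with each other on both. The high-zinc groups overlapped on the second LEF1 probe and not on the first. For SOX9 control siRNA at high zinc stood above its nearest neighbour, MTF1 siRNA at high zinc, by 0.25 with no overlap, and the lower 3 groups overlapped. For ASCL2 the lowest group, MTF1 siRNA at high zinc, lay 0.06 below MTF1 siRNA at low zinc with no overlap, and the other neighbours overlapped. For LGR5, AXIN2, PROM1 and NKD1 all neighbouring groups overlapped.

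Other genes of the pathway were read from lists, with the brightest entering probe standing for its gene, and the 4 Wnt lists (ligands and receptors, the beta-catenin core, inhibitors, other targets) held 71 measured genes. With control siRNA 7 rose and 7 fell with zinc (19.7%), where 18.9% of all named genes were called (8.87% higher, 10% lower). With MTF1 siRNA 6 rose and 11 fell (23.9%), where 17.2% of all named genes were (7.67% higher, 9.52% lower). Their median change was -0.04 and -0.09, against 0.00 and -0.02 over all named genes. None of the 71 was called by limma in the siRNA comparisons or the difference of zinc responses, where 0.104%, 2.09% and 0.0283% of named genes were. Called in both zinc comparisons were 6 of these genes, 6 of the 14 called with control siRNA and 6 of the 17 called with MTF1 siRNA. They were APCDD1, CCND1, CLDN1, KREMEN2, NKD2 and PLAUR, each with the same sign in both. The share of all named genes called in both was not counted, so this overlap is not read as particular to Wnt genes.

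Among 12 measured Wnt inhibitors, 1 rose and 4 fell with control siRNA, and 0 rose and 4 fell with MTF1 siRNA. That is 41.7% and 33.3% called, where 18.9% and 17.2% of all named genes were (10% and 9.52% lower). The list was not tested as a set. NKD2, the paralogue of NKD1, fell by 0.42 ± 0.09 and by 0.63 ± 0.09 (adjusted p = 0.00637 and 0.000434), and by 0.28 and 0.41 without background correction. KREMEN2, a co-receptor for Dickkopf proteins, fell by 0.71 ± 0.13 and by 0.74 ± 0.13 (adjusted p = 0.00383 and 0.00247), though its other probe read 0.27 and -0.96 and was called in neither. APCDD1, a membrane protein that binds Wnt and LRP5, fell in both (-0.36 ± 0.10 and -0.51 ± 0.10, adjusted p = 0.0306 and 0.0052). ZNRF3, the ligase that removes Frizzled from the surface, fell with MTF1 siRNA (-0.47 ± 0.09, adjusted p = 0.00562) and read -0.15 ± 0.09 with control siRNA. NOTUM, the enzyme that strips the lipid from Wnt, fell with control siRNA (-0.62 ± 0.17, adjusted p = 0.0247), a call lost in 6 of 21 alternatives. Its other probe read -0.42 there and was not called (adjusted p = 0.127).

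DKK1, the secreted inhibitor that binds LRP co-receptors, was the inhibitor that rose. Its change was 0.64 ± 0.10 with control siRNA (adjusted p = 0.00176) and 0.30 ± 0.10 with MTF1 siRNA (adjusted p = 0.0753). Its other probe gave 0.63 and 0.71 and was called in neither (adjusted p = 0.0971 and 0.0738). The difference between its zinc responses was not called on either probe (adjusted p = 0.297 and 0.933).

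Among 22 measured ligands and receptors, 2 rose and 1 fell with control siRNA, and 1 rose and 2 fell with MTF1 siRNA. That is 13.6% called each time, where 18.9% and 17.2% of all named genes were. WNT5A, a ligand best known for signalling without beta-catenin, rose by 0.77 ± 0.17 with control siRNA (adjusted p = 0.00904), and the receptor FZD5 fell by 0.71 ± 0.16 (adjusted p = 0.01). With MTF1 siRNA they read 0.51 ± 0.17 (adjusted p = 0.0588) and -0.41 ± 0.16 (adjusted p = 0.109). WNT3A, a canonical ligand, rose with MTF1 siRNA by 1.63 ± 0.24 (adjusted p = 0.000664), from a group in which it was above background on 1 of 3 arrays, and read 0.61 ± 0.24 with control siRNA (adjusted p = 0.094). The co-receptor LRP5 fell with MTF1 siRNA (-0.58 ± 0.12, adjusted p = 0.00685) and read -0.34 ± 0.12 with control siRNA. These are dim probes apart from LRP5: without background correction the called changes of WNT5A, FZD5 and WNT3A shrank to 0.39, -0.40 and 0.65, each still called. The remaining calls of the list, RYK with control siRNA (0.35 ± 0.10) and LGR4 with MTF1 siRNA (-0.57 ± 0.17), were lost in 7 and 18 of 21 alternatives.

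In the beta-catenin core 1 of 23 measured genes rose and 1 fell with control siRNA, and 2 rose and 3 fell with MTF1 siRNA. That is 8.7% and 21.7% called, where 18.9% and 17.2% of all named genes were. CTNNB1, which encodes beta-catenin, was not called (0.16 ± 0.10 and 0.01 ± 0.10, adjusted p = 0.295 and 0.952). TCF7L2, the family member most studied in the gut, fell with MTF1 siRNA (-0.67 ± 0.16, adjusted p = 0.0138) and read -0.18 ± 0.16 with control siRNA. That call was lost without MTF1 siRNA low-zinc replicate 2 and without MTF1 siRNA high-zinc replicates 1 and 3, each left out alone, with adjusted p of at most 0.06, and the change was -0.28 without background correction. AXIN1, the paralogue of AXIN2, rose with MTF1 siRNA (0.50 ± 0.12, adjusted p = 0.0129), a call lost without MTF1 siRNA low-zinc replicate 2 (adjusted p = 0.0525), and read 0.14 ± 0.12 with control siRNA. The kinase GSK3B, named here after its value was seen, rose with MTF1 siRNA too (0.38 ± 0.10, adjusted p = 0.029). AMER1 and CHD8 fell with MTF1 siRNA (-0.53 ± 0.16 and -0.39 ± 0.10). With control siRNA TNKS rose (at least 1.25-fold on background-corrected values) and CTBP1 fell (-0.40 ± 0.12). These calls were lost in 7 to 14 of their alternatives. Without background correction TNKS changed by 0.16 and was not called. The TNKS probe entered the tests only through the high-zinc groups, a filter that favours a rise. The other CTBP1 probes read 0.41 and -0.34.

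Among 14 measured further Wnt targets, 3 rose and 1 fell with control siRNA, and 3 rose and 2 fell with MTF1 siRNA. That is 28.6% and 35.7% called, where 18.9% and 17.2% of all named genes were. The list was not tested as a set. CCND1, the G1 cyclin, rose in both (0.38 ± 0.08 and 0.52 ± 0.08, adjusted p = 0.00771 and 0.00102). CLDN1, a tight junction protein, fell in both (-0.35 ± 0.11 and -0.62 ± 0.11, adjusted p = 0.05 when rounded and 0.00279), and the first of these calls was lost in 14 of 21 alternatives. PLAUR, the urokinase receptor, was not above background at low zinc with control siRNA. On background-corrected values its rise with control siRNA was at least 1.66-fold (limma, adjusted p = 0.00716). The log2 change was 1.03, or 0.34 without background correction, while the other PLAUR probe read -0.04. The first PLAUR probe entered the tests only through the high-zinc groups, a filter that favours a rise. With MTF1 siRNA it rose by 0.75 ± 0.21 (adjusted p = 0.0333), a call lost in 7 of 20 alternatives, and by 0.27 without background correction. The other PLAUR probe read 0.87 with MTF1 siRNA. BIRC5, the apoptosis inhibitor survivin, rose with control siRNA (0.34 ± 0.10, adjusted p = 0.0376), a call lost in 12 of 21 alternatives. Its other probe read 0.21 there and 0.54 with MTF1 siRNA, of which 0.54 was called (adjusted p = 0.0136). MYB, a transcription factor of progenitor cells, fell with MTF1 siRNA (-0.63 ± 0.16, adjusted p = 0.019), a call lost in 7 of 21 alternatives, with -0.22 without background correction. MYC was not called (0.10 ± 0.10 and 0.29 ± 0.10, adjusted p = 0.528 and 0.0704). LEF1 rose beside targets that rose, fell and did not pass the test.

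**Figure D3:**
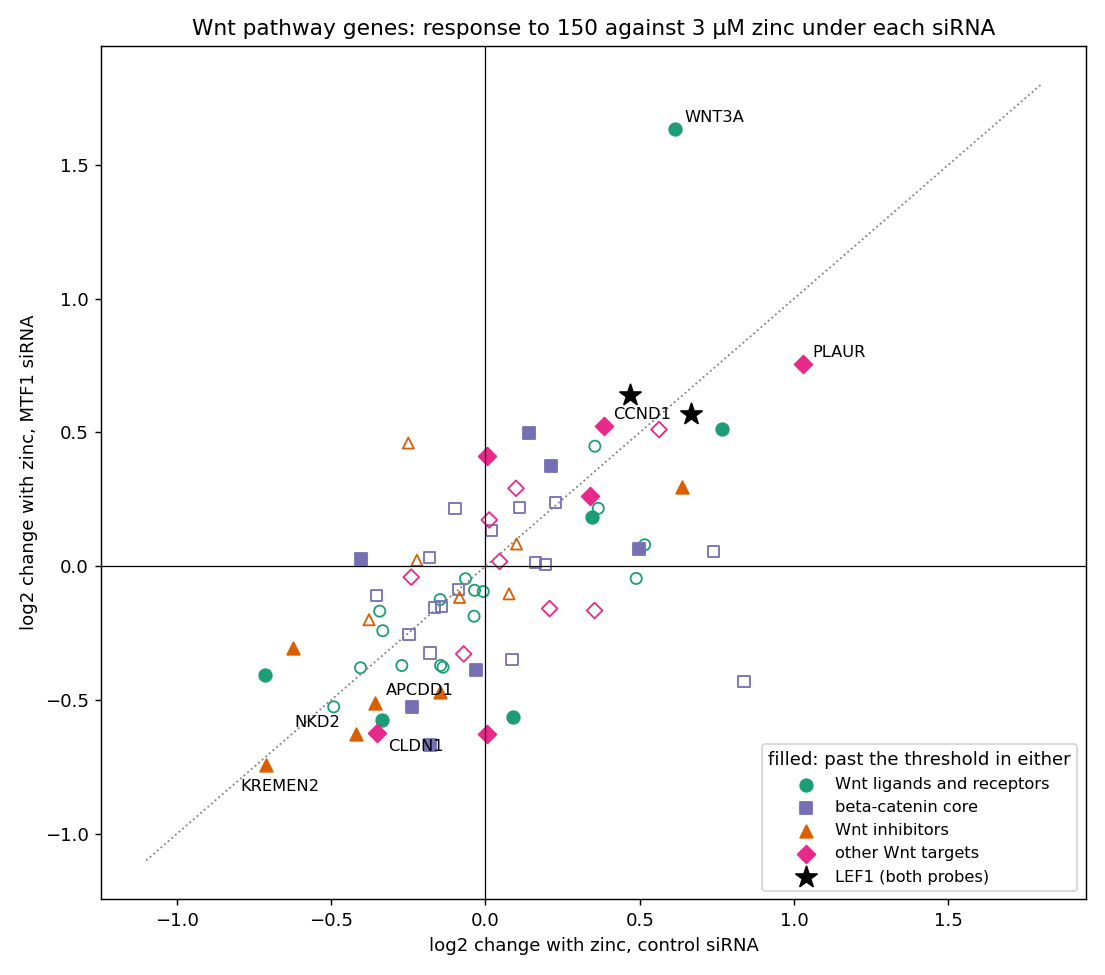
Log2 change with zinc in control siRNA cells (horizontal) against MTF1 siRNA cells (vertical) for the 71 genes of the 4 Wnt lists and both LEF1 probes; filled symbols were called in at least 1 comparison, and the dotted line marks equal change. Labels mark the 6 genes called in both and WNT3A, and the LEF1 stars lie between 0.47 and 0.67 on both axes.

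Of 12 further stem cell genes measured, 1 rose and 1 fell with control siRNA, and 1 rose and 2 fell with MTF1 siRNA. Over all named genes 18.9% and 17.2% were called in either direction. MSI2, an RNA-binding protein of stem and progenitor cells, rose in both (0.71 ± 0.10 and 0.79 ± 0.10, adjusted p = 0.00066 and 0.000223). Its other probes read 0.27 and 0.18 with control siRNA and 0.68 and 0.50 with MTF1 siRNA, of which 0.68 was called. ALDH1A1, an aldehyde dehydrogenase used as a stem cell marker, fell in both (-0.41 ± 0.10 and -0.97 ± 0.10, adjusted p = 0.0173 and 5.73e-05). The first of these calls was lost without control siRNA low-zinc replicate 3 and without control siRNA high-zinc replicate 2, each left out alone, and in the fit of only the groups compared. Its other probe read -0.04 and -0.77. ALDH1A1 was also lower with MTF1 siRNA at high zinc (-0.54 ± 0.10, adjusted p = 0.0256), a call lost in 9 of 21 alternatives, and its other probe read -1.13 there and was called (adjusted p = 0.0198). LRIG1, an ErbB inhibitor of crypt stem cells, fell with MTF1 siRNA (-0.45 ± 0.09, adjusted p = 0.00522) and read -0.15 ± 0.09 with control siRNA. The other LRIG1 probe read -0.22 with MTF1 siRNA and -0.34 with control siRNA and was called in neither (adjusted p = 0.308 and 0.1).

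Of 9 measured Eph and ephrin genes, the family of EPHB2 and EPHB3, 2 rose and 2 fell with control siRNA, and 2 rose and 0 fell with MTF1 siRNA. Over all named genes 18.9% and 17.2% were called in either direction. EPHA2, a receptor for A-type ephrins, rose by 1.15 ± 0.22 and 1.90 ± 0.22 (adjusted p = 0.00434 and 0.000107), and by 0.54 and 0.99 without background correction. EFNB2, a ligand of EphB receptors, rose by 0.68 ± 0.09 and 0.82 ± 0.09 (adjusted p = 0.000443 and 7.31e-05). The calls of EPHB4 and EFNA4, which fell with control siRNA (-0.37 ± 0.11 and -0.38 ± 0.10), were lost in 13 and 6 of 21 alternatives.

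Of 10583 other named genes, those whose level followed the second LEF1 probe most closely over the 12 arrays were STX5, SLC7A11 and CCN2, each with Pearson r = 0.98. STX5 encodes a Golgi syntaxin, SLC7A11 the cystine transporter and CCN2 a secreted matricellular protein. All 3 rose with zinc under both siRNAs, STX5 by 0.36 and 0.34, SLC7A11 by 1.52 and 1.60 and CCN2 by 1.82 and 1.67. The 12 arrays fall into low- and high-zinc groups, so such an r describes mainly that shared split.

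**Figure D4:**
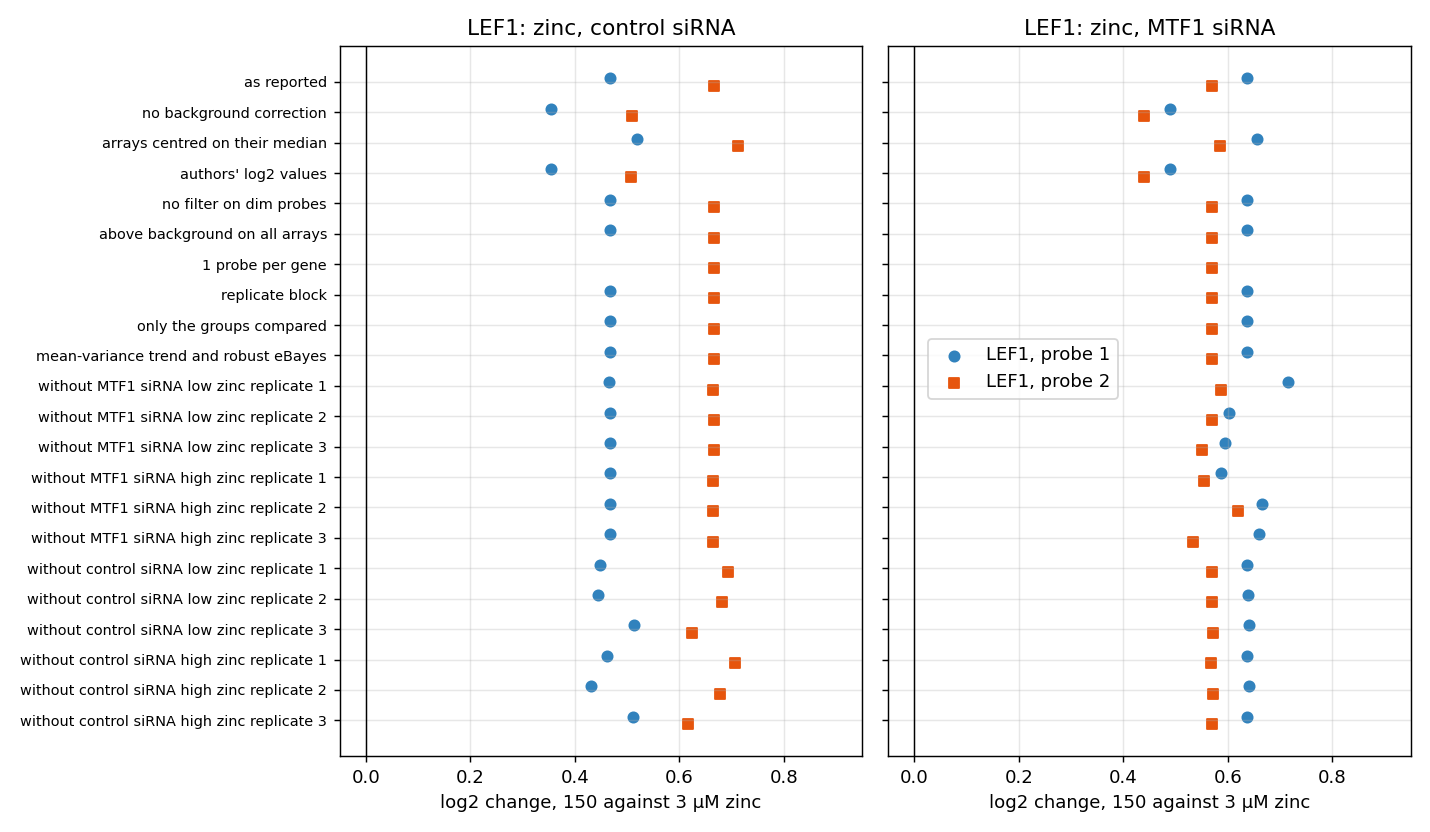
Log2 change of both LEF1 probes between 150 and 3 µM zinc, as reported and under each alternative (1 row each), for control siRNA (left) and MTF1 siRNA (right). All values lie above 0, between 0.355 and 0.712 on the left and between 0.439 and 0.716 on the right.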

How the data were processed

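Total RNA of 12 Caco-2 samples was measured on Illumina HumanHT-12 V4 arrays. The deposited table gives, per the file headers, an unnormalized intensity for each probe, which is linear, and per the file headers also a detection p-value. The deposited series table holds the authors' processed log2 values, by a method not stated in its header or the labels. Its array medians were all 7.03, and its ranks equalled those of the raw intensities. Scanner and summary software are not stated there either.

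Background was corrected by normexp from the detection p-values with an offset of 16, followed by quantile normalization and log2 (neqc, limma 3.58.1, R 4.3.3). Of 47323 probes, 30113 had 1 symbol in the platform table, 8 several and 17202 none, and 30074 were matched through gene identifiers. Sample titles gave the groups and replicate numbers. The fit (lmFit, eBayes) had a mean for each group over 12 arrays and 17413 entering probes. All p-values are two-sided, adjusted by Benjamini-Hochberg over these probes, with a threshold of 0.05. Intervals are 95% and unadjusted, and errors beside changes are SE. Array number limits the precision. Where a group was nowhere above background, the fold is a bound on the background-corrected scale only. It was taken against the lowest detected signal of each array or the probe's own signal, whichever was higher.

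Named genes are the members, MTF1, up to 4 genes of each list past the threshold with the largest change in each comparison, and the 3 genes most correlated with a called member. CTNNB1, MYC, GSK3B, CSNK1A1 and other values of a gene beside a called one were added after values were seen. The members and lists were chosen with earlier results of these data known. The fit was run on simulated data with independent noise. Its outcome is not given here and is not used as support for the calls. Alternatives changed the background correction, normalization, filter, probe choice, variance model, arrays fitted and replicate block. The series design text names ZNF658, and the labels, which name MTF1, were followed.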

Additional observations from a re-analysis of the deposited data

How the results depend on the processing

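Signal over background limits LGR5, EPHB3 and the dimmer list genes. A filter for probes above background on all arrays gave LGR5 no value, and the interaction has no fit of only the groups compared. Left-out arrays were followed by new normalization and filtering, with each gene's probe kept. Over 822 alternative values of the 40 member changes, 782 kept direction and side of the threshold, 12 newly passed it (SOX9, AXIN2 and PROM1) and 28 changed sign. None lost a call. Pairing by replicate number was looked for after each group's mean was subtracted from its arrays. Of 18 same-number pairs, 1 correlated above 0.1 (range -0.104 to 0.155). Their mean r was -0.003, against 0.002 for pairs of different numbers, and 5 of 12 arrays correlated best with their own number. No pairing was seen, though 3 arrays per group are too few to exclude it. With a replicate block, 2 member probes were called for zinc under each siRNA and 0 in the other comparisons, while calls over all probes went from 412 to 167 for MTF1 siRNA at high zinc, from 18 to 4 at low zinc and from 4 to 1 for the interaction.

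With 1 probe per gene, the member count was 1 in each zinc comparison. It was 1 for MTF1 siRNA at high zinc (PROM1) without background correction, with the authors' log2 values and with a mean-variance trend and robust eBayes. Counts over all probes ranged from 1795 to 3659 and from 1773 to 3095 for zinc with control and MTF1 siRNA, from 0 to 159 for MTF1 siRNA at low zinc, from 44 to 1263 at high zinc and from 0 to 155 for the interaction. Counts in the 5 Wnt and stem cell lists ranged from 0 to 5 with control siRNA and from 1 to 6 with MTF1 siRNA. The reported changes that turned sign were small and not called, and the cause was not tested. With arrays centred on their median, MTF1 siRNA changed the first LEF1 probe by 0.042 at low zinc, and AXIN2 by 0.07 and the second LEF1 probe by 0.029 at high zinc. Leaving out each array in turn, zinc with control siRNA gave -0.106 to 0.172 for LGR5 and -0.173 to 0.019 for AXIN2. Zinc with MTF1 siRNA gave -0.061 to 0.161 for SOX9, -0.159 to 0.285 for NKD1 and -0.438 to 0.032 for MTF1. MTF1 siRNA at low zinc gave -0.009 to 0.242 for SOX9, -0.042 to 0.143 for NKD1 and -0.1 to 0.022 for the first LEF1 probe. At high zinc it gave -0.082 to 0.133 for LGR5, -0.177 to 0.014 for AXIN2, -0.367 to 0.076 for NKD1 and -0.044 to 0.047 for the second LEF1 probe. The interaction gave -0.02 to 0.096 for ASCL2 and -0.408 to 0.035 for NKD1.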
